A study of Mus musculus with 10 samples.

Results

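Nucleotide excision repair is the pathway that cuts bulky lesions out of DNA, and its transcripts were measured here in oesophageal samples from mice treated with 4-NQO, a carcinogen whose metabolites leave bulky adducts on purines. The 41 members were taken by gene name from a deposited table of 22740 protein-coding genes, and cover damage recognition, the TFIIH helicase complex, incision, resynthesis and ligation. All 41 were found once each, and all 41 passed the filter on low counts that left 13731 genes for testing. The libraries comprise 5 from Grhl3 KO mice and 5 from wild types, all labelled C57BL/6 and all given 4-NQO, with dose, age and sex not given. The labels call the Grhl3 KO samples oesophageal tumour tissue and the wild-type samples oesophageal tissue, whereas the design text of the series speaks of tumours in both, so genotype and tissue label cannot be told apart. The series title calls the knockout conditional and the Grhl3 KO columns carry the word L2Cre, whose meaning the labels do not explain, so the cells in which Grhl3 was deleted are not known.

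In nucleotide excision repair a lesion is found either by a sensor that scans the whole genome or by an RNA polymerase that stalls on it. TFIIH is then recruited and unwinds the DNA, the damaged strand is cut on both sides of the lesion, and the gap is filled by replicative polymerases and sealed by a ligase. In mice and humans, loss of early factors causes sensitivity to ultraviolet light and to chemicals that form bulky adducts. Several late factors (RPA, polymerases delta and epsilon, the clamp loader RFC and DNA ligase I) also work at the replication fork of dividing cells.

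Each library held between 15.3 and 32.9 M counts, where M is the SI prefix mega, and levels are given as CPM, counts per M of the library size scaled by TMM. The lowest count of any member in any library was 181, for Pole. Grhl3 itself stood at 222 ± 66.8 CPM in Grhl3 KO libraries and 207 ± 112 CPM in wild-type libraries (SD, n = 5 each), so whole-gene counts do not check the genotype labels. The stratified epithelium list (8 genes) summed to between 43645 and 59162 CPM in Grhl3 KO libraries and between 38359 and 99624 CPM in wild type, so the labelled tissue carried its defining transcripts. The skeletal muscle list (12 genes) summed to between 742 and 5408 CPM in Grhl3 KO libraries and between 1235 and 2774 CPM in wild type. The Y-linked list (4 genes) summed to between 162 and 203 CPM in the 5 Grhl3 KO libraries, to 154 and 177 CPM in wild-type libraries 1028 and 1048, to 72.3 CPM in wild-type library 1561, and to 0.0527 and 0.0539 CPM in wild-type libraries 1528 and 1555. Wild-type libraries 1528, 1555 and 1561 also have sample numbers well above the other 7, and the meaning of the numbers is not stated. In bulk tissue, fewer cells of a type and less RNA per cell cannot be told apart.

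The comparison asked whether the repair transcripts differed between carcinogen-exposed oesophagus labelled Grhl3 KO and wild type. None of the 41 members passed the threshold of 0.05 on the adjusted p of edgeR's quasi-likelihood test, where 0.0801% of all genes tested did (11 of 13731). DESeq2 and limma voom also called 0 members, where they called 119 and 1 of the 13731 genes. At an unadjusted p under 0.05, edgeR picked 1 of the 41 members, Cetn2, where 7.16% of all genes did. The 5 Grhl3 KO and 5 wild-type libraries did not overlap for 2 of the 41 members, Cetn2 and Ercc6, where 1.35% of all genes tested showed no overlap. Counts this small do not set the members apart from all genes.

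The fold changes of the members were small, and for most of them the limits were narrow. Point estimates were above 0 for 13 members and below 0 for 28, where 49.7% of all genes tested were above 0. Of the 13 members that also work at the replication fork 12 were below 0, and of the remaining 28 members 16 were. The median log2 fold change of the 41 members was −0.03, against −0.0011 over all genes tested. With the 7 libraries of the lower sample numbers alone, the median of the members was 0.03. Estimates ran from −0.25 for Uvssa to 0.20 for Gtf2h4. For 31 of the 41 members both 95% limits lay within 0.5 on the log2 scale, and for all 41 within 1. The widest limits were those of Pole, −0.74 to 0.59. The member counts summed to 2247 ± 126 CPM in Grhl3 KO libraries and 2282 ± 148 CPM in wild-type libraries (SD, n = 5 each). Per kilobase of exon, the mean level over the 10 libraries ran from 68.1 CPM for Ddb1 to 1.63 CPM for Ercc8.

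**Figure D1:**
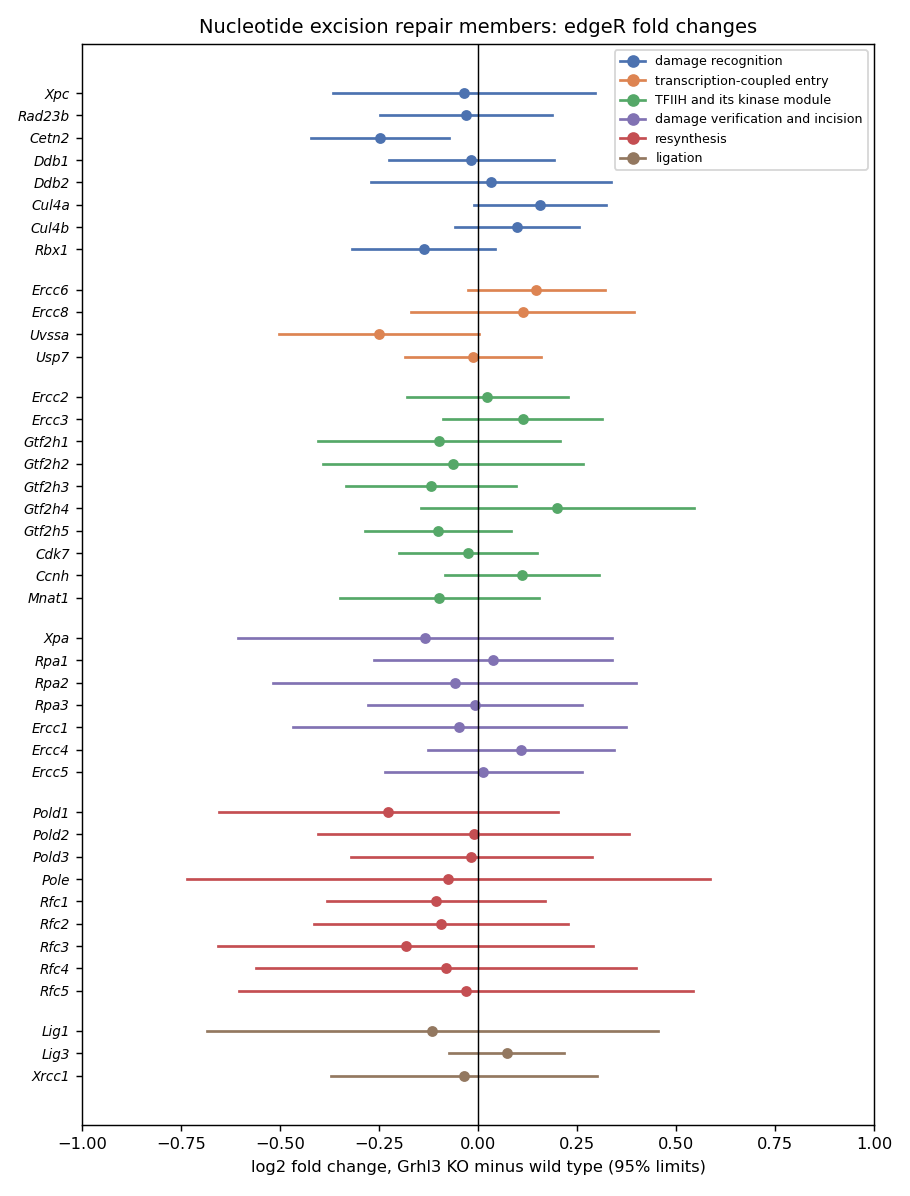
Log2 fold change of each of the 41 members, Grhl3 KO minus wild type (x axis), with members down the page by role; points are edgeR estimates and lines their 95% limits (n = 5 libraries each). The limits of 1 member, Cetn2, leave out 0, and no limit goes beyond −0.74 or 0.59.

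Among the 8 damage recognition members, the centrin gene Cetn2 was lower in every Grhl3 KO library than in any wild-type library, and the others differed by less than their spread allowed to be called. Cetn2 (ENSMUSG00000031347, GRCm38 chrX:72913532-72918411, minus strand) encodes the small calcium-binding partner that steadies the XPC sensor and also works in centrioles. It stood at 32.1, 31.3, 28.5, 30.5 and 31.9 CPM in Grhl3 KO libraries 1026, 1027, 1035, 1036 and 1043, against 36.6, 35.4, 41.2, 33.8 and 36.0 CPM in wild-type libraries 1028, 1048, 1528, 1555 and 1561. The highest Grhl3 KO library lay below the lowest wild-type library, and the gap was narrow. Its log2 fold change of −0.25 (SE 0.08, 95% limits −0.42 to −0.07) missed the threshold, as the edgeR adjusted p over all genes was 0.478. The gene is X-linked and wild-type libraries 1528 and 1555 lack Y-linked counts; without these 2 libraries the log2 fold change was −0.22 and the edgeR adjusted p 0.877.

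The remaining sensor genes were level between the groups. Xpc, which encodes the protein that binds distorted DNA, averaged 25.3 ± 4.33 CPM in Grhl3 KO libraries and 26.0 ± 4.75 CPM in wild-type libraries (log2 fold change −0.04). Rad23b, which encodes its ubiquitin-binding partner, averaged 258 ± 31.0 CPM in Grhl3 KO libraries and 263 ± 16.0 CPM in wild-type libraries (−0.03). Neither difference approached the spread among libraries of the same group. Ddb1, the adaptor of the ultraviolet-damage-binding complex and of many other ubiquitin ligases, was the most abundant member per kilobase and averaged 434 ± 27.7 CPM in Grhl3 KO libraries and 439 ± 44.6 CPM in wild-type libraries (−0.02). Ddb2, the lesion-binding subunit, averaged 14.5 ± 2.36 CPM in Grhl3 KO libraries and 14.1 ± 1.61 CPM in wild-type libraries (0.03). Exons of Acp2 on the opposite strand cover 23.8% of its exonic bases, and the name of the deposited file says that counting used strand.

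The ubiquitin ligase that DDB1 and DDB2 sit in is built on the scaffold CUL4A or CUL4B and the RING protein RBX1. Cul4a stood at 128, 123, 121, 127 and 138 CPM in Grhl3 KO (libraries in the order given for Cetn2), against 104, 116, 115, 126 and 110.4 CPM in wild type. All 5 Grhl3 KO libraries lay above the wild-type median and only wild-type library 1555 reached into their range (log2 fold change 0.16 with 95% limits of −0.01 to 0.32, edgeR adjusted p = 0.724). Cul4b, also X-linked, stood at 42.3, 42.7, 47.3, 43.0 and 44.7 CPM in Grhl3 KO, against 42.9, 42.0, 41.5, 37.5 and 41.6 CPM in wild type. Wild-type library 1555 was the lowest, and the groups overlapped by 1 wild-type library (0.10, edgeR adjusted p = 0.833). Rbx1 stood at 59.9, 58.4, 58.3, 56.3 and 62.3 CPM in Grhl3 KO, against 75.1, 57.8, 64.2, 60.9 and 66.9 CPM in wild type. The 5 Grhl3 KO libraries were all below the wild-type median of Rbx1, inside a range that the wild-type libraries shared at its low end (−0.14, edgeR adjusted p = 0.792).

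Transcription-coupled entry is represented by 4 members, of which Ercc6 and Ercc8 had higher means in Grhl3 KO, Uvssa had a lower mean and Usp7 was level, none past the threshold. Ercc6 encodes CSB, the translocase that reads the stalled polymerase. Its level was 26.1, 26.6, 23.8, 25.5 and 23.9 CPM in Grhl3 KO, against 22.0, 21.2, 23.6, 23.3 and 23.7 CPM in wild type. The groups did not overlap, but the lowest Grhl3 KO library and the highest wild-type library were 23.8 and 23.7 CPM (log2 fold change 0.15 with 95% limits of −0.03 to 0.32, edgeR adjusted p = 0.760). Ercc8, which encodes the ubiquitin ligase subunit CSA, stood at 12.0, 12.3, 13, 14.7 and 12.9 CPM in Grhl3 KO, against 14.8, 10.7, 10.5, 11 and 12.9 CPM in wild type. Wild-type library 1028 was the highest of the 10, so the groups overlapped (0.11, edgeR adjusted p = 0.919).

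Uvssa, whose product brings TFIIH to the stalled polymerase, had the most negative fold change of the 41 members. It stood at 20.6, 19.9, 18.8, 18 and 20.9 CPM in Grhl3 KO, against 20, 25.5, 22.8, 28.3 and 20.1 CPM in wild type. Wild-type libraries 1048, 1528 and 1555 lay above all Grhl3 KO libraries, and 1028 and 1561 lay among them (log2 fold change −0.25 with 95% limits of −0.50 to 0.0015, edgeR adjusted p = 0.701). Usp7, the deubiquitinase that UVSSA carries and that also acts on many other proteins, stood at 183, 171, 201, 194 and 202 CPM in Grhl3 KO, against 207, 190.2, 177, 196 and 190.2 CPM in wild type. The groups covered nearly the same range (−0.01, edgeR adjusted p = 0.989).

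**Figure D2:**
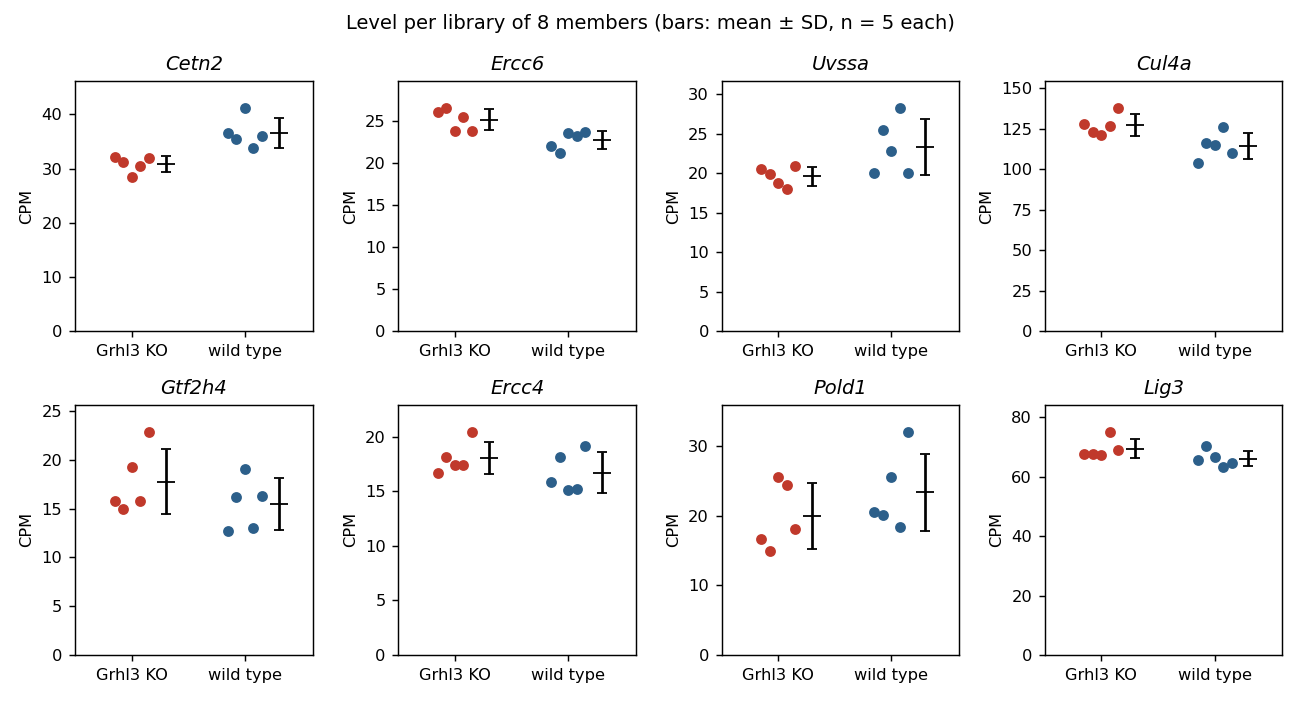
Level in CPM (y axis, from 0) of 8 members in each of the 5 Grhl3 KO libraries (left, red) and 5 wild-type libraries (right, blue), with black bars for mean ± SD. For Cetn2 the Grhl3 KO libraries sit between 28.5 and 32.1 CPM and the wild-type libraries between 33.8 and 41.2 CPM, while Pold1, with 14.9 to 25.5 CPM in Grhl3 KO libraries and 18.4 to 32.1 CPM in wild type, shows broad overlap.

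TFIIH opens the DNA around the lesion, and it also serves as a general transcription factor of RNA polymerase II. Of its 10 genes, 4 had estimates above 0 and 6 below, none past the threshold, within a range of −0.12 to 0.20. Gtf2h4, which encodes a core subunit that regulates the XPB translocase, stood at 15.8, 15, 19.3, 15.8 and 22.9 CPM in Grhl3 KO, against 12.7, 16.2, 19.1, 13 and 16.3 CPM in wild type. Grhl3 KO library 1043 was the highest and wild-type libraries 1028 and 1555 the lowest, with overlap between (log2 fold change 0.20 with 95% limits of −0.15 to 0.55, edgeR adjusted p = 0.856). Ercc3, which encodes XPB itself, stood at 50.5, 56.6, 55.4, 58.0 and 68.1 CPM in Grhl3 KO, against 53.3, 55.8, 48.0, 52.5 and 57.4 CPM in wild type. Apart from Grhl3 KO library 1043 at the top and wild-type library 1528 at the bottom, the groups shared a range (0.11, edgeR adjusted p = 0.865).

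Gtf2h3, another core subunit gene, stood at 40.2, 37.0, 40.1, 39.9 and 39.9 CPM in Grhl3 KO, against 37.6, 45.2, 51.9, 40.8 and 38.5 CPM in wild type. The Grhl3 KO libraries lay close together, with 3 wild-type libraries above them and 2 among them (−0.12, edgeR adjusted p = 0.865). Ccnh encodes cyclin H of the kinase module, which phosphorylates the polymerase. It stood at 24.7, 23.2, 28.1, 24.5 and 22.4 CPM in Grhl3 KO, against 21.6, 21.9, 24.8, 22.7 and 22.8 CPM in wild type. The groups overlapped (0.11, edgeR adjusted p = 0.864). The other kinase-module genes were close between the groups: Cdk7, the kinase, differed by −0.03 and Mnat1, its assembly factor, by −0.10. Ercc2, which encodes the XPD helicase that checks the strand, averaged 28.0 ± 1.77 CPM in Grhl3 KO libraries and 27.6 ± 2.81 CPM in wild-type libraries (0.02). The remaining core genes, Gtf2h1, Gtf2h2 and Gtf2h5, differed by −0.10, −0.06 and −0.10.

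Damage verification and incision brings together the lesion-checking protein XPA, the single-strand binder RPA and the nucleases. Of these 7 genes, 3 had estimates above 0 and 4 below, none past the threshold. Ercc4, which encodes XPF, the nuclease that cuts on the 5′ side of the lesion, stood at 16.7, 18.2, 17.4, 17.4 and 20.5 CPM in Grhl3 KO, against 15.9, 18.2, 15.1, 15.2 and 19.2 CPM in wild type. All 5 Grhl3 KO libraries were above the wild-type median, with wild-type libraries 1048 and 1561 among them (0.11, edgeR adjusted p = 0.901). Its obligate partner gene Ercc1 averaged 38.2 ± 4.74 CPM in Grhl3 KO libraries and 39.5 ± 12.3 CPM in wild-type libraries (−0.05). Ercc5, which encodes XPG, the nuclease of the 3′ side, averaged 36.7 ± 5.68 CPM in Grhl3 KO libraries and 36.4 ± 2.81 CPM in wild-type libraries (0.01).

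Xpa stood at 15.2, 18.6, 16.4, 13.4 and 21.4 CPM in Grhl3 KO, against 29.8, 15.6, 16.6, 17.8 and 13.4 CPM in wild type. Wild-type library 1028 stood alone at the top, and the remaining 9 libraries mixed (log2 fold change −0.13 with 95% limits of −0.61 to 0.34, edgeR adjusted p = 0.948). RPA is a trimer. Rpa1 stood at 59.1, 59.8, 72.1, 91.2 and 65.4 CPM in Grhl3 KO, against 69.1, 63.9, 72.5, 54.9 and 78.8 CPM in wild type. Rpa2 stood at 18.4, 17.2, 28.1, 24.4 and 20.8 CPM in Grhl3 KO, against 26.6, 22.3, 16.7, 16.1 and 31.7 CPM in wild type. Both groups held high and low libraries of each gene (0.04 and −0.06, edgeR adjusted p = 0.981 for both). Rpa3, the smallest subunit, differed by −0.01.

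Resynthesis and ligation gave estimates below 0 for all 9 polymerase and clamp loader genes, none past the threshold, and this side depended on the libraries: with the 7 libraries of the lower sample numbers alone, Pold2, Pold3, Rfc2 and Rfc5 had estimates above 0. Pold1, the catalytic subunit of polymerase delta, stood at 16.7, 14.9, 25.5, 24.4 and 18.1 CPM in Grhl3 KO, against 20.6, 20.1, 25.5, 18.4 and 32.1 CPM in wild type. Wild-type library 1561 was the highest and Grhl3 KO library 1027 the lowest, with the rest mixed (log2 fold change −0.23 with 95% limits of −0.66 to 0.20, edgeR adjusted p = 0.877). Rfc1, the large subunit of the clamp loader, stood at 63.5, 57.3, 75.1, 79.9 and 77.4 CPM in Grhl3 KO, against 73.9, 73.2, 74.8, 63.6 and 94.7 CPM in wild type. Rfc3, a small subunit, stood at 12.5, 14.2, 24.5, 18.1 and 15.9 CPM in Grhl3 KO, against 20.2, 18.6, 16.6, 13.9 and 27.5 CPM in wild type. In both genes library 1561 was the highest, and the groups overlapped (−0.11 and −0.18, edgeR adjusted p = 0.920 for both).

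Rfc2 stood at 43.1, 36.7, 44.0, 54.0 and 41.6 CPM in Grhl3 KO, against 38.4, 43.2, 53.7, 39.3 and 59.7 CPM in wild type, with broad overlap (−0.09, edgeR adjusted p = 0.947). The other resynthesis members, Pold2, Pold3, Pole, Rfc4 and Rfc5, differed by −0.01, −0.02, −0.08, −0.08 and −0.03. Lig1, the ligase that also joins replication intermediates, stood at 24.7, 25, 46.5, 41.1 and 37.5 CPM in Grhl3 KO, against 33.7, 34.3, 33.9, 24.8 and 62.8 CPM in wild type. Library 1561 stood far above the others, and 3 libraries of both groups lay together at the bottom (log2 fold change −0.12 with 95% limits of −0.69 to 0.45, edgeR adjusted p = 0.967). Lig3, the ligase that works with XRCC1, stood at 67.8, 67.7, 67.4, 75.2 and 69.0 CPM in Grhl3 KO, against 65.5, 70.2, 66.5, 63.4 and 64.7 CPM in wild type. It was nearly flat, with the 5 Grhl3 KO libraries above the wild-type median (log2 fold change 0.07 with 95% limits of −0.07 to 0.22, edgeR adjusted p = 0.888). Xrcc1, its scaffold, stood at 27.7, 24.5, 32.7, 29.3 and 29.7 CPM in Grhl3 KO, against 26.0, 25.5, 38.7, 22.5 and 34.9 CPM in wild type, with the Grhl3 KO range inside that of wild type (−0.04, edgeR adjusted p = 0.983).

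No shift in the proportions of partner genes was detected between the groups, which does not show that the proportions were equal. The log2 ratio of Cul4a to Cul4b was 1.53 ± 0.106 in Grhl3 KO libraries and 1.47 ± 0.173 in wild-type ones (SD, n = 5 each), a difference of 0.06 (exact two-sided permutation p = 0.508). Lig1 over Lig3 was −1.03 ± 0.399 in Grhl3 KO libraries and −0.87 ± 0.489 in wild-type ones, a difference of −0.16 (exact p = 0.635). Both differences lay inside the spread of their own groups. The ratios of Ercc1 to Ercc4, Ddb2 to Ddb1 and Ercc8 to Ercc6 differed by −0.12, 0.04 and −0.02 (exact p = 0.603, 0.730 and 0.857). After adjustment over the 6 ratios tested, of which 5 are given, each of these p-values was 0.857, and the smallest p that 5 against 5 allows is 0.00794.

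In the wider pathway no gene was called either. A further list of 22 genes (other subunits of the polymerases, the sliding clamp, chromatin and ubiquitin factors of repair) had 13 estimates above 0 and 9 below. Of these edgeR called 0, where 0.0801% of all genes tested were called. At an unadjusted p under 0.05 there were 2, where 7.16% of all genes were, so the counts do not set the list apart. Gadd45a, a stress-inducible gene linked to repair and growth arrest, averaged 17.7 ± 3.58 CPM in Grhl3 KO libraries and 25.2 ± 6.21 CPM in wild-type libraries (log2 fold change −0.51, edgeR adjusted p = 0.599). Usp45, which encodes a deubiquitinase of ERCC1, averaged 28.0 ± 2.65 CPM in Grhl3 KO libraries and 23.9 ± 1.91 CPM in wild-type libraries (0.22, edgeR adjusted p = 0.668). Pole3, a small subunit of polymerase epsilon, averaged 65.9 ± 7.59 CPM in Grhl3 KO libraries and 76.1 ± 7.77 CPM in wild-type libraries (−0.21, edgeR adjusted p = 0.728). Aqr, which encodes an RNA helicase of the XAB2 complex, averaged 71.5 ± 6.06 CPM in Grhl3 KO libraries and 61.0 ± 9.69 CPM in wild-type libraries (0.23, edgeR adjusted p = 0.734). In all 4 genes the libraries of the groups overlapped.

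The members differed in how much they varied among libraries of the same group. The spread was measured as the SD of log2 CPM within groups, whose median over all genes tested was 0.258. The median spread of the roles was 0.115 for damage recognition, 0.130 for transcription-coupled entry, 0.135 for TFIIH, 0.229 for verification and incision, 0.332 for resynthesis and 0.256 for ligation. Of the 28 members that do not belong to the replication fork machinery, 26 had a spread under the median of all genes, against 5 of the 13 that do (RPA, polymerases delta and epsilon, RFC and Lig1). Lig3 was the steadiest member, with an SD of 0.0612 and only 0.299% of all genes steadier. Pole was the most variable, with an SD of 0.550 and levels 3.30-fold apart between the highest and the lowest library. These spreads are a description of the 10 libraries, with no test. The median of all genes includes genes of low counts, and spreads were not compared at matched levels.

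**Figure D3:**
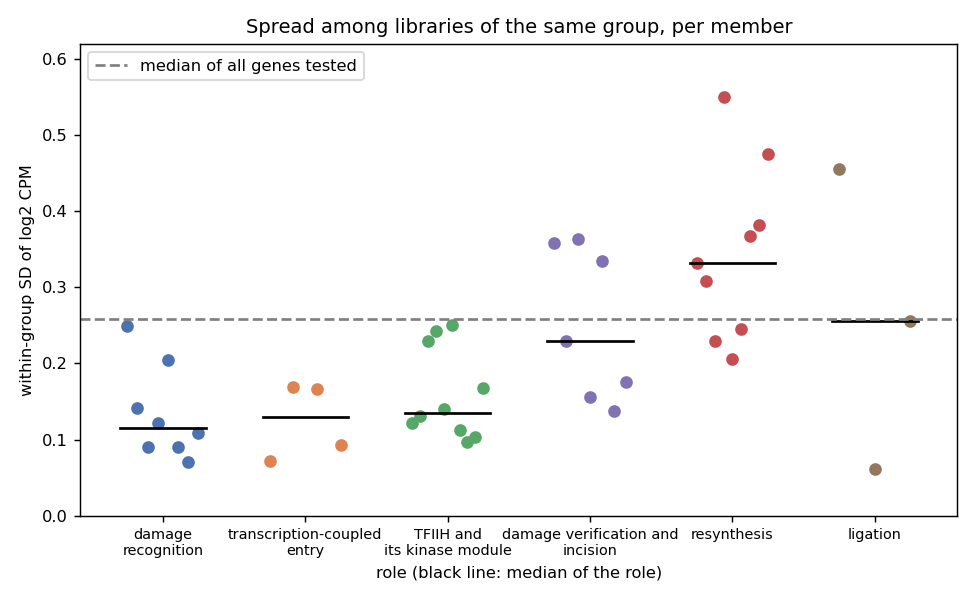
Within-group SD of log2 CPM (y axis) for each member, by role (x axis); black lines are role medians and the dashed line is the median of all genes tested, 0.258. Damage recognition has a median of 0.115 and resynthesis one of 0.332.

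Many of the replication fork members were high and low in the same libraries. Xpa, also variable with an SD of 0.359, was not among them, and had r = −0.442 with the proliferation list described next. Pole, the catalytic subunit of polymerase epsilon, stood at 14.7, 12.5, 28.5, 20.9 and 20.6 CPM in Grhl3 KO, against 18.5, 22.7, 19.3, 9.75 and 32.2 CPM in wild type. Rfc5 stood at 19.6, 24.3, 37.5, 33.3 and 33.1 CPM in Grhl3 KO, against 23.5, 30.1, 35.1, 16.8 and 45.6 CPM in wild type. Wild-type library 1561 was the highest and wild-type library 1555 the lowest in both genes, with Grhl3 KO libraries 1026 and 1027 low and 1035 high, so the pattern ran across both genotypes. Of the 13 replication fork members, 12 were highest in library 1561, and 6 were lowest in library 1555. Over all 41 members, 15 were highest in library 1561. The shares of all genes highest or lowest in these libraries are not given. Summed over these 13 members the levels were 352, 336, 487, 479.7 and 417 CPM in Grhl3 KO, against 414, 407, 443, 325 and 583 CPM in wild type. The remaining 28 members summed to between 1769 and 1936 CPM in Grhl3 KO libraries and between 1779 and 1944 CPM in wild type.

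**Figure D4:**
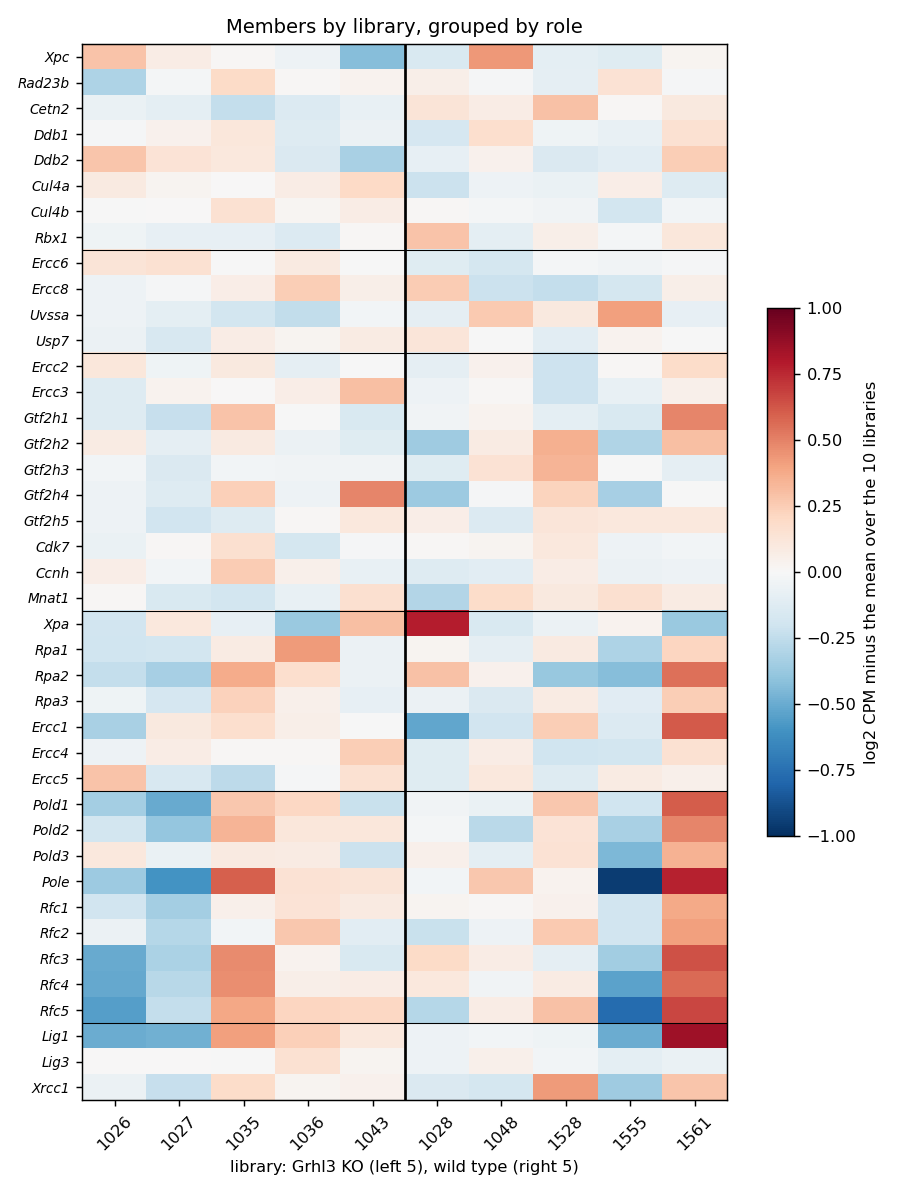
Log2 CPM of each member (rows, by role) minus its mean over the 10 libraries (colour, from −1 in blue to 1 in red), with the 5 Grhl3 KO libraries left of the line and the 5 wild-type libraries right of it. Most rows of resynthesis and that of Lig1 turn blue in libraries 1026, 1027 and 1555 and red in 1035 and 1561, while most upper rows stay pale.

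A list of 20 proliferation genes, such as Mki67, Top2a and the Mcm helicase genes, was used as a measure of transcripts of dividing cells. The list holds no member, but it does hold other DNA replication genes, among them the Mcm genes, Gins2, Prim1 and Pola1. It is therefore not independent in function of the replication fork members. Its mean log2 CPM was 5.15, 5.07, 5.93, 5.70 and 5.61 in Grhl3 KO, against 5.21, 5.59, 5.54, 4.84 and 6.09 in wild type. The groups did not differ beyond their spread (5.49 ± 0.369 in Grhl3 KO libraries and 5.46 ± 0.464 in wild-type ones, SD, n = 5 each; two-sided exact permutation p = 0.897). Of its genes 12 had fold change estimates above 0 and 8 below. EdgeR called 0 of them and 0 had an unadjusted p under 0.05, where 0.0801% and 7.16% of all genes did. The 4 of smallest p, Plk1, Prim1, Top2a and Mcm6, differed by −0.24, −0.13, 0.16 and 0.12. Across the 10 libraries, 3 of the 41 members correlated positively with it at an adjusted p under 0.05 (100000 permutations, adjusted over 13711 genes), where 0.773% of all genes did. They were Pole with r = 0.965 (rho = 0.964, permutation p = 2e-05, adjusted 0.0171), Rfc5 with r = 0.956 (rho = 0.891, permutation p = 4e-05, adjusted 0.0183) and Lig1 with r = 0.941 (rho = 0.964, permutation p = 2e-05, adjusted 0.0171). Without libraries 1555 and 1561, which lie farthest from the median of the list, r was 0.929, 0.903 and 0.923 for Pole, Rfc5 and Lig1, and no gene of the 13711 passed the adjusted threshold with 8 libraries. Within the 7 libraries of the lower sample numbers r was 0.932, 0.931 and 0.927, again with no gene past the threshold. With only 8 or 7 libraries there are few orderings to permute, so hardly any gene could pass after adjustment over 13711 genes. The absence of calls there cannot decide whether the correlations held. No correlation was computed within a genotype, each having 5 libraries.

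Without a test, r was above 0.7 in 14 of the 41 members, where 6.24% of all genes reached that value. These were 12 of the 13 replication fork members, all except Pold3 with r = 0.648, and 2 of the other 28, Gtf2h1 with r = 0.812 and Xrcc1 with r = 0.752. The count depended on the libraries: without 1555 and 1561 it was 8 of the 41 members, 7 of them replication fork members, and within the 7 libraries of the lower sample numbers 10, of which 8 were replication fork members. The share of all genes above 0.7 is not given for these smaller sets of libraries. High r arises more readily by chance in fewer libraries, so these counts have no background to be read against. In these settings the r of Pold3 was 0.0345 and −0.00551. The clamp gene and further polymerase subunit genes of the wider pathway list were divided. Across the 10 libraries r was 0.869 for Pcna and 0.843 for Pole2, but 0.0261 for Pold4, 0.29 for Pole3 and 0.419 for Pole4. The damage recognition genes had a median r of 0.03 and the resynthesis genes one of 0.86. Lig3 had r = 0.288 beside the 0.941 of Lig1. Genes measured in the same 10 libraries share depth and scaling, and the relation of the members to the share of dividing cells was not tested further.

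**Figure D5:**
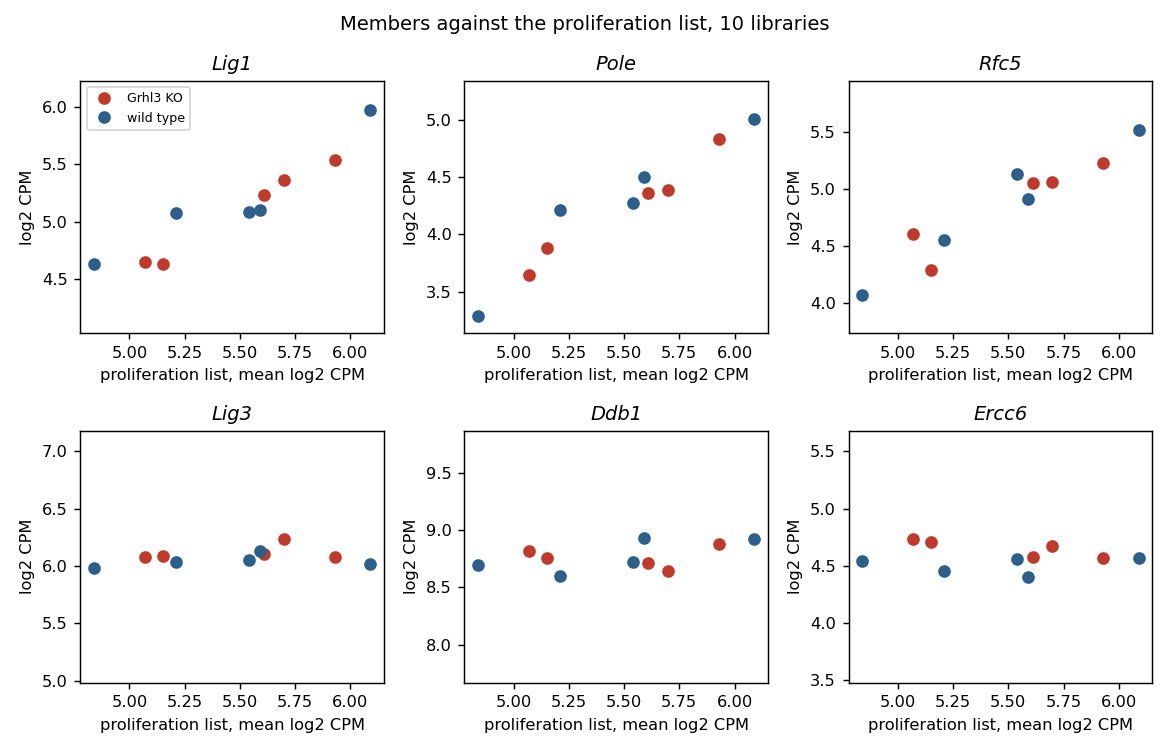
Log2 CPM of 6 members (y axes, each spanning the same range) against the mean log2 CPM of the 20 proliferation genes (x axis) in the 5 Grhl3 KO libraries (red) and 5 wild-type libraries (blue). Lig1, Pole and Rfc5 climb with the list across the 10 libraries (r = 0.941, 0.965 and 0.956), while Lig3 stays nearly level (r = 0.288).

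Because many replication fork members were high and low in the same libraries, promoter windows were read for an E2F-type motif, the letters that E2F factors of the cell cycle bind. The windows run from 250 bases before to 50 after each start in the RefSeq table of GRCm38.p6, which held 35 of the 41 members. The letters searched were TTTCCCGC, TTTGGCGC, TTTCGCGC and TTTGCCGC, on both strands. A motif was in 4 of 11 replication fork members with a window (36.4%), in 1 of 24 other members (4.17%), in 7 of 16 proliferation genes (43.8%), in 4 of 18 genes of the wider pathway list (22.2%) and in 449 of 10162 genes tested (4.42%). A match is a description of the letters and not a bound site. The letters CCAAT, searched on both strands as well, were in 6 of the 11 (54.5%), in 12 of the 24 (50%), in 14 of the 16 proliferation genes (87.5%), in 7 of the 18 genes of the wider pathway list (38.9%) and in 42.3% of genes tested.

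The windows of Rfc3 and Lig3 are shown up to 30 bases past the start, as a variable member with the motif and the steadiest member without it, and 30 bases around the motif are shown for the other 4 members that hold one. The motif did not follow the spread throughout. The windows of Rfc5 (SD 0.475) and Rfc4 (SD 0.382) hold none, nor do those of Rpa2 (SD 0.363) and Xpa (SD 0.359). Those of the steadier Pold3 (SD 0.23) and Rbx1 (SD 0.108) each hold a motif. Pole, the most variable member, has no window. Capitals mark the E2F-type letters, and each run is written 5′ to 3′ on the strand of the gene. The Rfc3 stretch is chr5:151651179-151651458 (minus strand) and holds 2 motifs, 10 bases before the start and at the start itself. The Lig3 stretch is chr11:82780859-82781138 (plus strand) and holds none. The motif of Lig1 at chr7:13278841-13278870 (plus strand) is in 1 of the 3 windows of that gene. Those of Pold1 at chr7:44548766-44548795 (minus strand) and Pold3 at chr7:100121467-100121496 (minus strand) also lie past the start. That of Rbx1 at chr15:81466186-81466215 (plus strand) lies 119 bases before it.
Rfc3: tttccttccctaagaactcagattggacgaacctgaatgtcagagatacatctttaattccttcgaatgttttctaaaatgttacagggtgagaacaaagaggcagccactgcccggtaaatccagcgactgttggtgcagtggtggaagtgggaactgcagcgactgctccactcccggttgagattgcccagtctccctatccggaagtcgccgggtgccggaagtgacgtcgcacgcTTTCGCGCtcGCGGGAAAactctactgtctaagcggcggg
Lig3: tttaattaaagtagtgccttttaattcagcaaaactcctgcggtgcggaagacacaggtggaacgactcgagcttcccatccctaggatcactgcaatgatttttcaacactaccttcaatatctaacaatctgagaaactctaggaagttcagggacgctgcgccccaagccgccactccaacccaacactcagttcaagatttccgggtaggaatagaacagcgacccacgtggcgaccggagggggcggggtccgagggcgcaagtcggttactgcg
Lig1: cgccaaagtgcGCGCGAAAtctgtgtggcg
Pold1: cacggcggcgtatcttgtgGCGGGAAAagc
Pold3: gagcgaagctgTTTCCCGCcggcgggagct
Rbx1: ggaggagggggGCGGGAAAcctccgcctgc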

How the data were processed

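Whole-number counts per gene were deposited by the authors without normalization, for 22740 protein-coding genes in 10 libraries, with 0 rows that name no gene and 0 unmapped columns. Per the labels' protocols, libraries were made with a stranded poly(A) kit from column-purified RNA. Counting used featureCounts and the build GRCm38, per the submitters' processing notes, and the name of the deposited table speaks of reverse-stranded counting; aligner and annotation: not given in the sources used here.

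Genes were filtered with filterByExpr (minimum count 10, minimum total 15), scaled by TMM and tested with edgeR 4.0.16 (quasi-likelihood F-test, R 4.3.3, no covariate) on all 13731 genes, with Benjamini-Hochberg adjustment and a threshold of 0.05. A prior count of 2 was added for log2 CPM. DESeq2 1.42.0, limma voom (3.58.1), other filters and scalings, covariates and left-out libraries were alternatives. The scripts were tested on simulated data. Library measures were compared by exact permutation over the 5 and 5 libraries, and Python 3.11.15 with scipy 1.17.1 was used. Replicates are the numbered samples of a label, described as separate mice in the design text. Exon overlaps and lengths come from GENCODE on GRCm38, with overlaps searched only among the protein-coding genes of the deposited table. Similarity comes from blastn 2.17.0 (at least 95% identity over 75 bases). No member shares exonic bases with another of those protein-coding genes on its own strand, and 11 do on the opposite strand (up to 25.1%, for Lig3). Usp7, Rbx1, Ercc6 and Rfc5 resemble an annotated pseudogene. Coordinates are 1-based.

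The members and gene lists were chosen with earlier results of these data known, and the correlation with the proliferation list was added after seeing the data. The rule for values in every library takes, in each role, at most 4 members with the lowest p; the other pathway genes named are the 4 of smallest p in their list. Pole and Rfc5 were shown in full after their values were seen. A result of 1 further gene is not reported here.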

Additional observations from a re-analysis of the deposited data

Results flagged for a closer look

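Within each group of 5 libraries, the levels of the members and the partner ratios were searched for a single library lying far from the other 4 relative to the range of the group. Of 92 groups examined 9 held such a library, where chance flags about 1 in 20 groups. In Grhl3 KO, library 1027 was lowest for Gtf2h3 at 37.0 CPM (next 39.9) and library 1036 was highest for Lig3 at 75.2 CPM (next 69.0). The other 7 were in wild type. Library 1028 was lowest for Mnat1 at 17.2 CPM (next 22.3) and highest for Xpa at 29.8 CPM (next 17.8). Library 1048 was highest for Xpc at 34.2 CPM (next 25.8) and lowest for Gtf2h5 at 50.6 CPM (next 58.2). Library 1555 was lowest for Cul4b at 37.5 CPM (next 41.5). Library 1561 was highest for Gtf2h1 at 114 CPM (next 83.2) and for Lig1 at 62.8 CPM (next 34.3), and it was also the library with the highest proliferation level.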

How the results depend on the processing

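No member was called under any of the 19 alternatives to the fit, and the median log2 fold change of the members ran from −0.10 to 0.06 when each library was left out. The count of all genes called was 119 with DESeq2, 1 with limma voom, 7 without a filter, and 1 with the 7 libraries of lower sample numbers, without libraries 1528 and 1555, or with number series as a covariate; it ran from 1 to 16 with each library left out. The fold change of 18 members kept its sign throughout and that of 23 did not; the cause was not tested. With the 7 libraries of lower sample numbers alone it became 0.10 for Gtf2h2, 0.10 for Rpa3, 0.36 for Ercc1, 0.16 for Pold2, 0.029 for Pold3, 0.11 for Rfc2, 0.14 for Rfc5, 0.043 for Lig1 and 0.16 for Xrcc1, and with number series as a covariate 0.10, 0.10, 0.35, 0.16, 0.027, 0.11, 0.14, 0.041 and 0.16 for the same genes. Without libraries 1528 and 1555 it became −0.044 for Ddb2, −0.033 for Ercc2, −0.021 for Rpa1 and −0.0022 for Ercc5. With a skeletal muscle covariate it became 0.0035 for Xpc, −0.023 for Ercc5, 0.019 for Pold3 and 0.012 for Rfc5, and with limma voom 0.0022 for Rpa3, 0.0089 for Ercc1, −0.017 for Ercc5 and 0.024 for Rfc5. With each library left out in turn the fold changes ran as follows: Xpc from −0.12 to 0.084, Rad23b from −0.085 to 0.036, Ddb1 from −0.068 to 0.023, Ddb2 from −0.037 to 0.10, Usp7 from −0.042 to 0.013, Ercc2 from −0.023 to 0.076, Gtf2h1 from −0.19 to 0.028, Gtf2h2 from −0.16 to 0.024, Cdk7 from −0.072 to 0.0047, Xpa from −0.23 to 0.094, Rpa1 from −0.091 to 0.096, Rpa2 from −0.17 to 0.092, Rpa3 from −0.071 to 0.0596, Ercc1 from −0.17 to 0.13, Ercc5 from −0.062 to 0.074, Pold2 from −0.10 to 0.13, Pold3 from −0.13 to 0.077, Pole from −0.27 to 0.15, Rfc2 from −0.19 to 0.0085, Rfc4 from −0.23 to 0.071, Rfc5 from −0.20 to 0.17, Lig1 from −0.25 to 0.14 and Xrcc1 from −0.13 to 0.0797. The log2 ratio of Ercc1 to Ercc4 differed by 0.273 with the 7 libraries of lower sample numbers and by 0.0103 without libraries 1528 and 1555. With each library left out, the difference ran from −0.289 to 0.043 for Lig1 to Lig3, from −0.0309 to 0.108 for Ddb2 to Ddb1 and from −0.0822 to 0.0644 for Ercc8 to Ercc6. The count of members correlated with the proliferation list was 0 without libraries 1555 and 1561 and 0 with the 7 libraries of lower sample numbers, and ran from 0 to 4 with each library left out; it was 0 without any one of Grhl3 KO libraries 1026, 1027 and 1035 or wild-type libraries 1555 and 1561. These correlation alternatives were chosen after seeing the data. With 8 or 7 libraries there are few orderings to permute, so hardly any gene could pass the adjusted threshold, and those counts of 0 decide nothing. No paired analysis was possible because the groups share no sample numbers. The lowest count of a member in a library was 181, and whether counting error adds to the smallest spreads was not tested. With 5 libraries a group, log2 differences of variable members such as Pole (95% limits −0.74 to 0.59) are bounded only loosely.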
